A study of Mus musculus with 4 samples.

Results

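Transcription factors that direct B-cell development were followed across 4 libraries of single mouse bone marrow cells. The 10 genes were Ebf1, Pax5, Tcf3, Foxo1, Ikzf1, Ikzf3, Lef1, Bach2, Pou2af1 and Bcl11a, matched by symbol, out of 32285 genes in the deposited count matrices. All 10 symbols were found, each with a single row. The material was Kit-positive bone marrow carrying CD45.2, taken 10 weeks after transplantation, with a single library for each of 4 groups, namely a control, a deletion of Mll3, a deletion of Mll4 and a deletion of both (Mll3/4). The labels give no strain, no driver of the deletion and no host, and they do not say whether animals were pooled. Mll3 and Mll4, encoded by Kmt2c and Kmt2d, are related histone methyltransferases that act at enhancers. Kmt2c was detected at 47.9 CPM (counts scaled to a common total of UMIs) in the control, 27.2 CPM after Mll3 deletion, 59.2 CPM after Mll4 deletion and 34.8 CPM after deletion of both. The matching levels of Kmt2d were 25.8, 21.6, 25.0 and 24.7 CPM. Over all kept cells Kmt2d thus lay at a similar level in control and where Mll4 is labelled as deleted. In the B-cell progenitor-like cells defined below, Kmt2d was 40.3 CPM (33.6 to 47.9, a 95% counting interval) in the control, 25.3 CPM (19.9 to 31.9) after Mll3 deletion, 16.8 CPM (6.18 to 36.7, from 6 counts) after Mll4 deletion and 24.7 CPM (23.6 to 25.9) after deletion of both. There it was lower than control, with intervals apart, in the library of both deletions and also in that of Mll3 alone. A 3′ count can miss a deletion elsewhere in the gene, so a deletion is named below only as the label of its library: Mll3-labelled, Mll4-labelled or Mll3/4-labelled.

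B-cell commitment is built up in steps. E2A, the product of Tcf3, and FOXO1 act early in lymphoid progenitors and help switch on Ebf1, EBF1 then activates Pax5, and PAX5 fixes the B fate by activating B-cell genes and silencing those of other lineages. IKAROS (Ikzf1) and AIOLOS (Ikzf3) are zinc-finger factors of the same family, the former present from the stem cell on and the latter in later B and T cells. LEF1 is a Wnt-pathway factor of B and T progenitors, BACH2 represses myeloid and plasma cell genes, OBF1 (Pou2af1) is a coactivator that works with octamer-binding proteins, and BCL11A is needed for B cells and also silences fetal globin in erythroid cells.

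Promoter sequences are shown for the 2 genes that passed 2-fold between Mll3/4-labelled and control B-cell progenitor-like cells, Foxo1 (higher) and Tcf3 (lower), and for Pax5 and Pou2af1, which were both high in B-lineage cells and low elsewhere. They are the bases before the annotated start, from RefSeq on GRCm38.p6, 5′ to 3′ on the strand of the gene, without bases under annotated exons. Capitals mark the core letters of the EBF motif, CCCNNGGG.
Foxo1, chr3:52268087-52268335, plus strand: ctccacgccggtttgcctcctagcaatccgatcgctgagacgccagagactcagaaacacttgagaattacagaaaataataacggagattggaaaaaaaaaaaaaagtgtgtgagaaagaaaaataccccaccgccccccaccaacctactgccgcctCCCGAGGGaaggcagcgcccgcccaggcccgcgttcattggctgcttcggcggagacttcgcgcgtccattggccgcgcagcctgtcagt
Tcf3, chr10:80433648-80433885, minus strand: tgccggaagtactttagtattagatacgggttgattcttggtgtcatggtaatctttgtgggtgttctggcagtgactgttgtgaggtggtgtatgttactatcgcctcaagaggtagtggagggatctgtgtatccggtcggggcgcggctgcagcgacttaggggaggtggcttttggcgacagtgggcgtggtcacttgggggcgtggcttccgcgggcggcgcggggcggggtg
Pax5, chr4:44710695-44710944, minus strand: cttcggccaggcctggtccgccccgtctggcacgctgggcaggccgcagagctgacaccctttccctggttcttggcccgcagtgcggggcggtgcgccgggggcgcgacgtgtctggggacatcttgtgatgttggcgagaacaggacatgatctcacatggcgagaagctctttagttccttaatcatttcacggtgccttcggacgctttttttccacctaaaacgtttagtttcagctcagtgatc
Pou2af1, chr9:51213440-51213689, plus strand: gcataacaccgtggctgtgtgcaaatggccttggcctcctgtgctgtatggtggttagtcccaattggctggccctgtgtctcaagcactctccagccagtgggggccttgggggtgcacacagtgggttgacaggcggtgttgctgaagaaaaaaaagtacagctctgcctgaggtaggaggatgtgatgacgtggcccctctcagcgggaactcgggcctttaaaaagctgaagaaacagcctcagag
The EBF letters occurred once in the Foxo1 window and in none of the other 3. They were searched on both strands in the full 250 bases before each start, bases under exons included, and 11.8% of 32817 such windows of all genes held them. Of 14 windows of 9 of the 10 factors, 2 held them, the Foxo1 window and a window of Ikzf1. The E-box CAGCTG was in 1 of the 14 windows, of Lef1, beside 13.01% of all windows, and the Ikaros letters TGGGAA were in 2, of Ebf1 and Bcl11a, beside 21.6%. The octamer ATTTGCAT (1.60% of all windows), the forkhead letters GTAAACA (3.16%) and the LEF letters CTTTGAT (3.21%) were in none of the 14. Such matches describe letters and not binding. Ikzf3 had no window.

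In GENCODE M21 on GRCm38 all 10 factors are protein-coding genes. Ebf1 lies on chromosome 11 from 44617317 to 45008091, the longest of the 10, and Tcf3 on chromosome 10 from 80409514 to 80433647, the shortest. Foxo1 spans chr3:52268336-52353221, Pax5 chr4:44524757-44710487, Pou2af1 chr9:51213708-51240080 and Lef1 chr3:131110471-131224356. Ikzf1 (chr11:11685003-11772926), Bcl11a (chr11:24078056-24174123) and Ikzf3 (chr11:98464902-98546031) share chromosome 11 with Ebf1, and Bach2 (chr4:32238804-32586108) shares chromosome 4 with Pax5.

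After filters 7146 cells were kept in control, 5860 in the Mll3-labelled, 5350 in the Mll4-labelled and 6917 in the Mll3/4-labelled library. The median kept cell had between 5142 UMIs (Mll4-labelled) and 16963.5 UMIs (Mll3-labelled), and any pair of libraries shared between 9 and 24 cell barcodes. There were no replicates, so no test was possible, every interval is a 95% interval for counting error only, and each ratio compares libraries and not conditions. Cells were clustered without the 10 factors, and clusters were named from markers that include none of them. The B-cell progenitor-like class, named from 10 markers that include Cd79a, Cd79b, Vpreb1, Vpreb3, Igll1, Rag1, Rag2, Il7r and Blnk, held 469 control cells (6.56%), 370 Mll3-labelled cells (6.31%), 143 Mll4-labelled cells (2.67%) and 6830 Mll3/4-labelled cells (98.7%). All 10 markers were detected in it in each library, at a summed 12405, 10664, 7773 and 11199 CPM in the same order.

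Across cell classes the factors fell into different patterns. Ebf1, Pax5 and Pou2af1 were nearly limited to B-lineage cells. In control, Ebf1 stood at 2590 CPM in B-cell progenitor-like cells and at 3.86 CPM in the next class, the HSC/MPP-like cells (stem cells and multipotent progenitors). Pax5 stood at 246 CPM in the former and at most 0.91 CPM in any other control class of 50 or more cells. Pou2af1 stood at 205 CPM and at most 3.33 CPM in the same comparison. Among the classes outside the B lineage, Ebf1 was highest in basophil/mast-like cells of the Mll4-labelled library, at 27.7 CPM (16.9 to 42.7).

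Foxo1, Lef1 and Bach2 were high in B-cell progenitor-like cells and also in the 50 T/NK/innate lymphoid-like cells of control. Foxo1 stood at 120 CPM (108 to 132) in the former and 83.2 CPM (53.8 to 123) in the latter, so that the intervals overlapped. Lef1 stood at 638 CPM and 196 CPM, and Bach2 at 126 CPM and 53.2 CPM, with intervals apart. Lef1 was at most 0.56 CPM in the remaining control classes, while Bach2 was 9.93 CPM in HSC/MPP-like cells.

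Ikzf3 marked mature lymphocytes. It stood at 136 CPM in control T/NK/innate lymphoid-like cells and at 119 CPM in the 145 mature B cell-like cells of the Mll3-labelled library, beside 1.89 CPM in control B-cell progenitor-like cells. The mature B cell-like cells also differed from Mll3-labelled B-cell progenitor-like cells in Lef1, 20.3 against 505 CPM, in Pax5, 401 against 199 CPM, and in Bach2, 270 against 119 CPM. Ebf1 was 1771 CPM in them, near the 2108 CPM of the progenitor-like cells, with intervals apart.

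Tcf3, Ikzf1 and Bcl11a were broad. Control Tcf3 was highest in B-cell progenitor-like cells at 228 CPM, followed by erythroid progenitor-like cells at 101 CPM, and lowest in neutrophil-like cells at 27.5 CPM. Ikzf1 was highest in T/NK/innate lymphoid-like cells at 243 CPM, with basophil/mast-like, erythroid progenitor-like and B-cell progenitor-like cells at 151, 134 and 129 CPM and overlapping intervals between neighbours. Bcl11a was highest outside the B lineage, at 218 CPM in erythroid progenitor-like and 194 CPM in basophil/mast-like cells, whose intervals overlapped, with B-cell progenitor-like cells at 142 CPM, below megakaryocyte-like cells at 161 CPM.

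**Figure D1:**
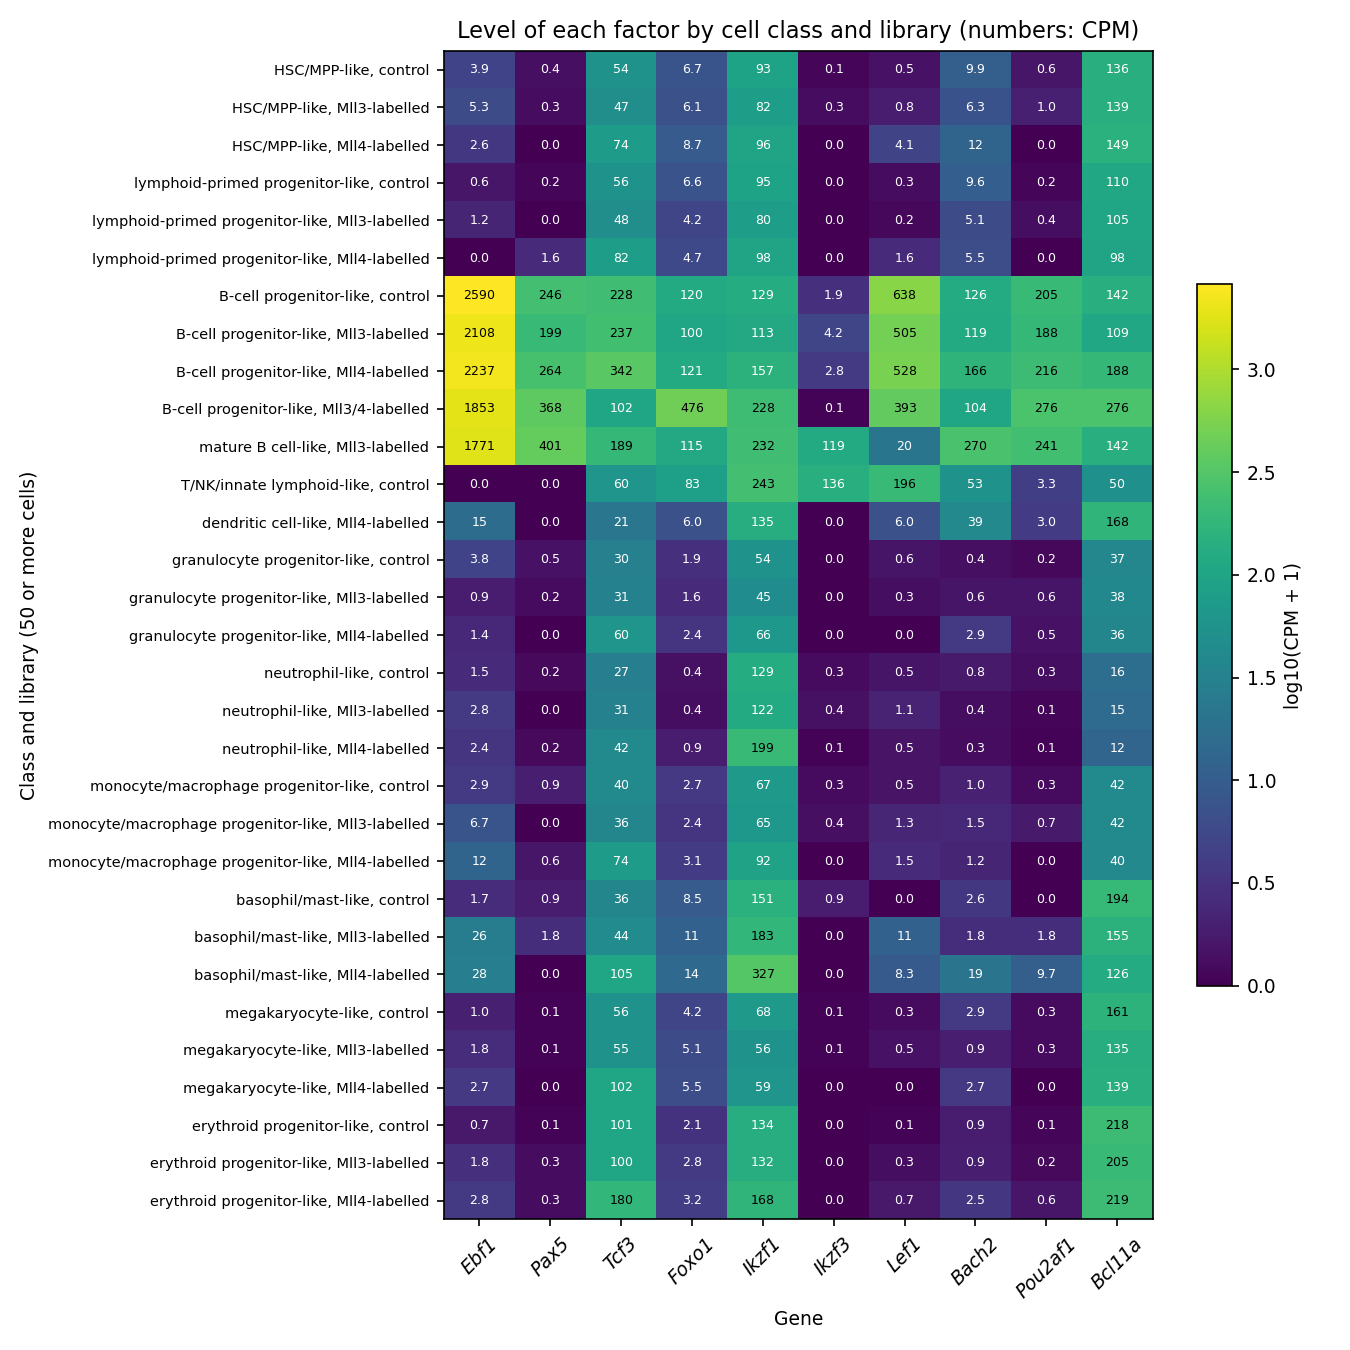
Level of the 10 factors (columns) in each cell class and library with at least 50 cells (rows), with the CPM printed in each cell and the colour giving log10(CPM + 1). Ebf1, Pax5 and Pou2af1 are high only in the B-lineage rows, Ikzf3 only in the mature B cell-like and T/NK/innate lymphoid-like rows, and Bcl11a reaches 218 CPM in control erythroid progenitor-like cells.

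Over 30 sums of a class in a library, with the Mll3/4-labelled library left out, the genes most like Ebf1 among 8189 genes were Vpreb3 (Pearson r = 0.97), Gfra1, Rag1, Cd79a and Gm37065. For Pax5 they included Cd79a (r = 0.97), Gm37065, Rag1 and Blnk. For Ikzf3 they were Cd2 (r = 0.95), Gimap3, Id3, Gimap4 and Iglc2, and for Bcl11a Tmem64 (r = 0.92), Arl4a, Yae1d1, Fancl and Rab10. Between factors, r was 0.95 for Ebf1 and Pou2af1, 0.93 for Ebf1 and Pax5, 0.93 for Foxo1 and Bach2, and 0.03 for Ikzf3 and Bcl11a. These are descriptions, since the sums share libraries and cell classes, and several of the like genes are B-cell class markers.

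Over whole libraries, 6 of the 10 factors were at least 2-fold higher in the Mll3/4-labelled library than in control, and none was 2-fold lower. Of 15158 genes with at least 20 counts in either library, 12% were 2-fold higher and 11.7% were 2-fold lower. Foxo1 was 5.44 CPM in control, 5.46 CPM in Mll3-labelled, 4.30 CPM in Mll4-labelled and 466 CPM in Mll3/4-labelled cells, a log2 ratio of 6.18 over control with a pseudocount of 1 CPM. Pax5 was 5.45, 5.75, 3.17 and 360 CPM in the same order of libraries (log2 ratio 5.81). Pou2af1 was 4.57, 5.13, 2.87 and 270.2 CPM (5.61). The Mll3/4-labelled library stood far above the other 3 for all 3 of these genes.

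Ebf1 was 56.3, 52.8, 28.5 and 1812 CPM in control, Mll3-labelled, Mll4-labelled and Mll3/4-labelled cells (log2 ratio 4.98). Lef1 was 13.9, 11.4, 7.08 and 385 CPM (4.70), and Bach2 was 5.18, 4.88, 4.76 and 102 CPM (4.06). The 4 broad or late factors moved less. Ikzf1 was 113, 107, 157 and 225 CPM, a ratio of 0.99 that lay just under 2-fold. Bcl11a was 145, 145, 84.0 and 271 CPM (0.90), Tcf3 was 72.9, 76.0, 86.4 and 100.4 CPM (0.45), and Ikzf3 was 0.48, 0.72, 0.40 and 0.32 CPM (-0.16).

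These differences ran alongside the share of B-cell progenitor-like cells, which went from 6.56% to 98.7%. The class gave 2.07% of all UMIs in control but 95.1% of the Ebf1, 95.1% of the Lef1, 93.3% of the Pax5 and 92.7% of the Pou2af1 counts there. It gave 50.3% of the Bach2 and 45.5% of the Foxo1 counts, but 6.47% of the Tcf3, 2.37% of the Ikzf1 and 2.02% of the Bcl11a counts. In the Mll3/4-labelled library it gave 97.7% of the UMIs and between 98.8% and 99.9% of the counts of each factor but Ikzf3, for which it gave 28.0%. Ikzf3 was 10.1 CPM in the 87 Mll3/4-labelled cells outside the B-lineage classes, 19 of them T/NK/innate lymphoid-like. In those 87 cells Ebf1 was 92.4 CPM, beside 1.52 to 4.04 CPM outside the B-lineage classes of the other libraries, where free RNA from a library made nearly wholly of B cells was not tested.

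None of the 10 factors passed 2-fold over whole libraries in the Mll3-labelled library, where 0.199% of 14550 genes were higher and 0.46% lower. None passed in the Mll4-labelled library either, where 5.74% of 14452 genes were higher and 2.91% lower. The largest ratios there were -0.96 for Ebf1, -0.88 for Lef1 and -0.78 for Bcl11a. They stood beside a B-cell progenitor-like share of 2.67% against 6.56% and an erythroid progenitor-like share of 9.74% against 22.9%. The count for the Mll4-labelled library depended on how cells are weighted: 5 factors passed 2-fold lower when each cell counted equally and 7 when cells were thinned to 2000 UMIs. The shares of all genes above are for summed counts, and those under these weightings are not given here.

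**Figure D2:**
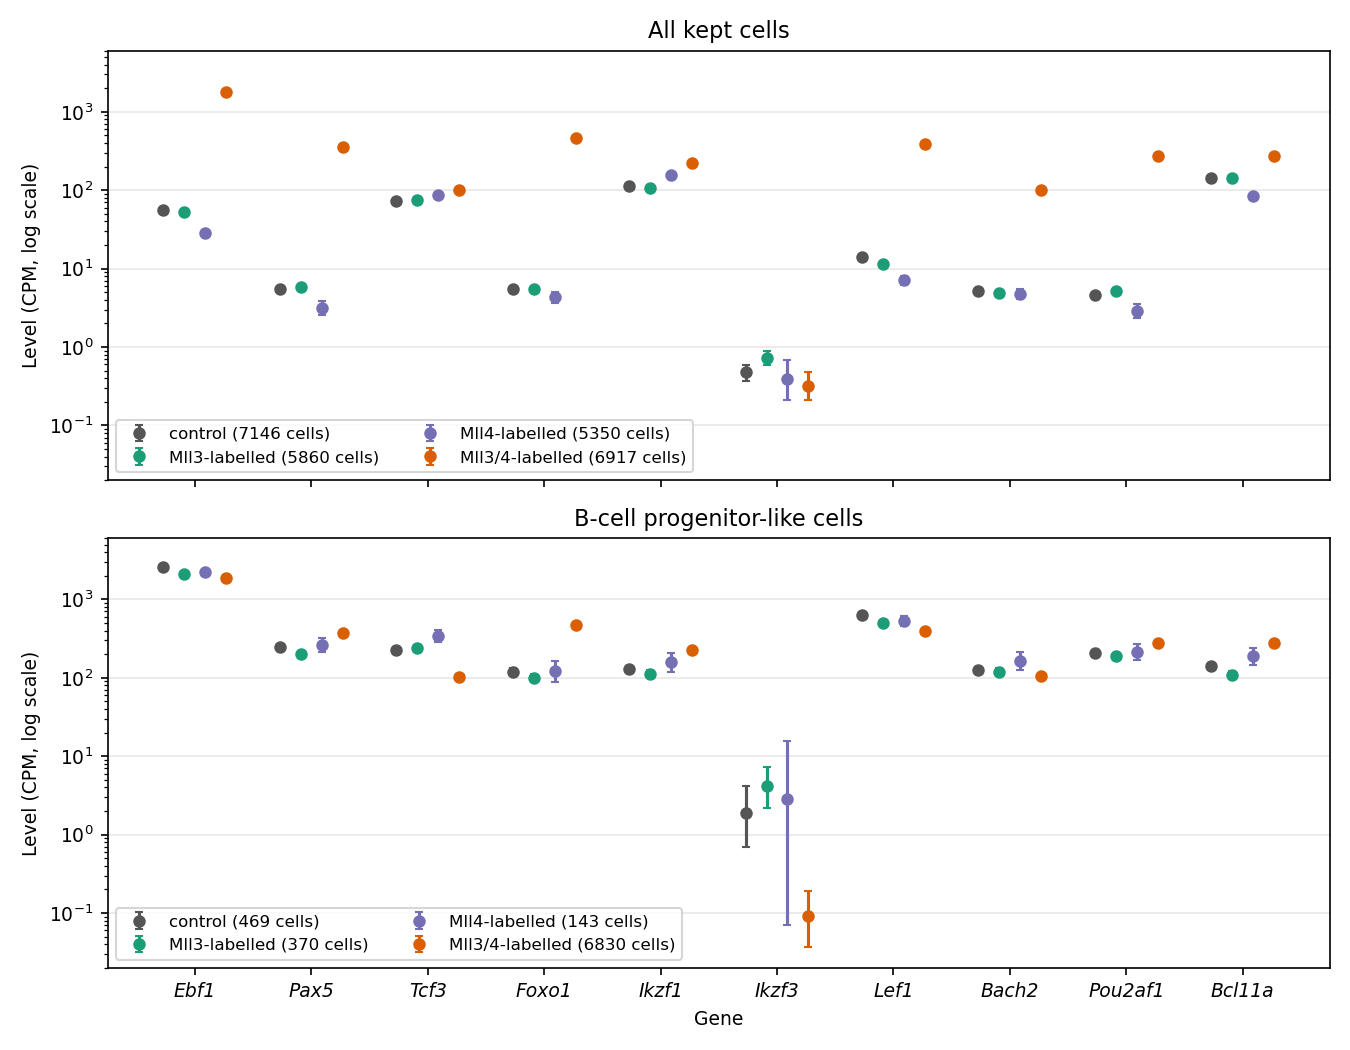
Level of each factor in CPM (log axis) in the 4 libraries, over all kept cells (top) and in B-cell progenitor-like cells (bottom); points are summed counts and bars the 95% Poisson interval, for counting error only. Over all cells the Mll3/4-labelled point stands far above the others for Ebf1, Pax5, Foxo1, Lef1, Bach2 and Pou2af1. In B-cell progenitor-like cells, among factors with at least 20 counts, it lies over 2-fold from control only for Foxo1 (higher) and Tcf3 (lower). Its interval there, narrow because this library holds far more cells of the class, lies outside those of the other libraries for every factor but Ikzf3. The share of all genes for which this holds is not given here, so it describes the factors only.

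Within B-cell progenitor-like cells the picture was different: Foxo1 was higher and Tcf3 lower in the Mll3/4-labelled library by more than 2-fold, and the other 7 measured factors differed by less. Of 13456 genes with at least 20 counts in either library, 9.48% were 2-fold higher and 7.37% were 2-fold lower, so 1 factor in each direction of 9 is near the background. The cells compared sat in different clusters, which may mark the library rather than a cell type. Nearly all control, Mll3-labelled and Mll4-labelled cells of the class lay in clusters 0 and 17, and nearly all Mll3/4-labelled cells in clusters 22 to 26. The exceptions were 1 control and 3 Mll4-labelled cells in cluster 22, and 4 and 2 Mll3/4-labelled cells in clusters 0 and 17. Their median UMI counts were 4410 in control, 6481 in the Mll3-labelled, 2276 in the Mll4-labelled and 9936 in the Mll3/4-labelled library. Levels of the 9 neutrophil markers also moved with the libraries: their summed level in the class was 2435 CPM in control, 1803 CPM in Mll3-labelled, 6330 CPM in Mll4-labelled and 78.3 CPM in Mll3/4-labelled cells. The 6 granulocyte progenitor markers summed to 797, 958, 879 and 47.3 CPM. The part of these RNAs in the ratios was not tested.

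Foxo1 encodes a forkhead factor that is held out of the nucleus by PI3K and AKT signalling and drives Il7r and the Rag genes in early B cells. In B-cell progenitor-like cells it was 120 CPM in control, 99.6 CPM in Mll3-labelled, 121 CPM in Mll4-labelled and 476 CPM in Mll3/4-labelled cells. The first 3 lay close together, and the Mll3/4-labelled level was 3.95-fold that of control, a log2 ratio of 1.98 (1.85 to 2.14). Counts per cell were 0.81 in control beside 5.29 in Mll3/4-labelled cells.

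Tcf3, whose E2A proteins bind E-boxes together with other E proteins and are blocked by Id proteins, moved the other way. It was 228 CPM in control, 237 CPM in Mll3-labelled, 342 CPM in Mll4-labelled and 102 CPM in Mll3/4-labelled cells. The Mll3/4-labelled level was the lowest, at a log2 ratio of -1.16 (-1.28 to -1.05), and the Mll4-labelled level the highest, at 0.58 (0.30 to 0.86). Tcf3 was also lower per cell, 1.13 UMIs in Mll3/4-labelled against 1.55 in control cells, although the Mll3/4-labelled cells held more UMIs in all. The order of the other libraries turned on the measure, since the shallower Mll4-labelled cells held 0.85 UMIs of Tcf3 per cell, the fewest, and the Mll3-labelled cells 1.84, the most.

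Within B-cell progenitor-like cells Ebf1, the pioneer factor of the lineage, was the most abundant of the 10 in each library. It was 2590, 2108, 2237 and 1853 CPM in control, Mll3-labelled, Mll4-labelled and Mll3/4-labelled cells. The Mll3/4-labelled level was lower than in control as a share of UMIs, at a log2 ratio of -0.48 (-0.52 to -0.45), but not in UMIs per cell, which were 17.5 in control beside 20.6 in Mll3/4-labelled cells. Its target Pax5, the commitment factor, was 246, 199, 264 and 368 CPM, with a ratio of 0.58 (0.48 to 0.69). Pou2af1 was 205, 188, 216 and 276 CPM, with a ratio of 0.43 (0.32 to 0.54). Pax5 and Pou2af1 were therefore highest in the Mll3/4-labelled library, where Ebf1 was lowest by CPM.

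The Ikaros-family gene Ikzf1 was 129, 113, 157 and 228 CPM in the same order, with a Mll3/4-labelled ratio of 0.81 (0.67 to 0.96). Bcl11a was 142, 109, 188 and 276 CPM, with a ratio of 0.95 (0.82 to 1.10) that reached 2-fold only within its interval. Lef1 was 638, 505, 528 and 393 CPM, with a ratio of -0.70 (-0.76 to -0.63), while its UMIs per cell were 4.32 in control beside 4.37 in Mll3/4-labelled cells. Bach2 was 126, 119, 166 and 104 CPM, with a ratio of -0.27 (-0.42 to -0.13), and its UMIs per cell were 0.85 and 1.16. For Ebf1, Lef1 and Bach2 the direction thus depends on whether a share of UMIs or a count per cell is read. Ikzf3 had 6 counts in control beside 7 in Mll3/4-labelled cells, 1.89 CPM (0.69 to 4.11) against 0.092 CPM (0.037 to 0.19), too few for a ratio by the 20-count rule.

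Dividing and non-dividing cells were then set side by side, split by whether a cluster held at least 500 CPM of the proliferation gene Mki67, a split added after the data were seen. Cluster 17 was dividing among the cells of the other libraries, and clusters 23 and 26 among the Mll3/4-labelled cells. Foxo1 was 79.8 CPM in dividing control cells and 401 CPM in dividing Mll3/4-labelled cells, a log2 ratio of 2.31 (2.10 to 2.57). In non-dividing cells it was 180 and 512 CPM, a ratio of 1.50 (1.32 to 1.70). The Foxo1 difference was thus present in both states.

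Tcf3 was 199 CPM in dividing control and 101 CPM in dividing Mll3/4-labelled cells, a ratio of -0.97 (-1.13 to -0.82), just under 2-fold. In non-dividing cells it was 273 and 102 CPM, a ratio of -1.41 (-1.58 to -1.26). Lef1 was 874 CPM in non-dividing control and 402 CPM in non-dividing Mll3/4-labelled cells, at -1.12, but 484 and 376 CPM in dividing cells, at -0.36. Ebf1 was 3680 and 1991 CPM in non-dividing cells, at -0.89, and 1875 and 1567 CPM in dividing cells, at -0.26. Bcl11a passed 2-fold in non-dividing cells, at 1.12, and not in dividing cells, at 0.76. Whether the 2 states differ in these ratios was not tested. Non-dividing control cells were shallow, with a median of 3415 UMIs beside 9006 in non-dividing Mll3/4-labelled cells, while the dividing cells had 11115.5 and 13947 UMIs.

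**Figure D3:**
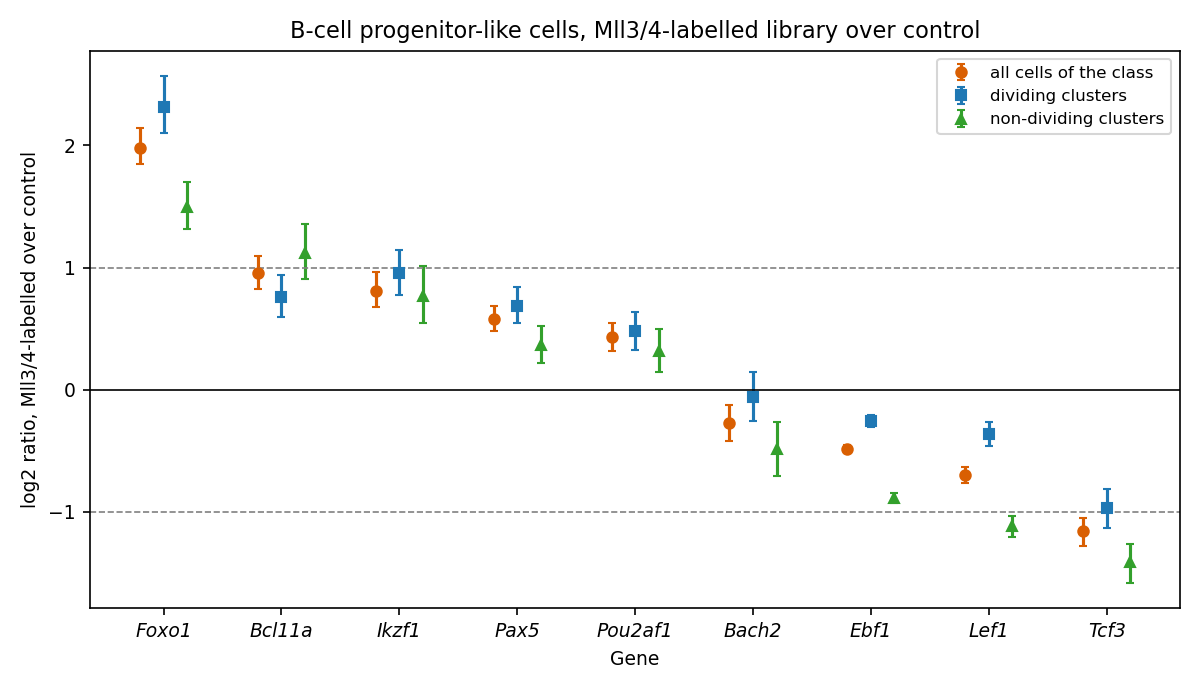
Log2 ratio of the Mll3/4-labelled library over control in B-cell progenitor-like cells for the 9 factors with at least 20 counts, in all cells of the class, in dividing clusters and in non-dividing clusters; bars are 95% intervals for counting error only and dashed lines mark 2-fold. Foxo1 lies above 2-fold in all 3, from 1.50 to 2.31, and Tcf3 lies at or below -0.97 in all 3.

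Over clusters, the levels of Foxo1 and Tcf3 in the 5 Mll3/4-labelled clusters did not overlap those in the 6 sums of clusters 0 and 17 in the other 3 libraries. Foxo1 ran from 329 to 542 CPM in the former and from 67.4 to 181 CPM in the latter. Tcf3 ran from 81.8 to 105 CPM and from 199 to 384 CPM. The other 8 factors overlapped. How many of all genes lay apart in this way is not given here, so the count has no background beside it. Ebf1 ran from 530.5 to 2191 CPM over the Mll3/4-labelled clusters and from 1705 to 3677 CPM over the others. The lowest levels of Ebf1, Pax5 and Pou2af1 in the Mll3/4-labelled library, 530.5, 184 and 101 CPM, were in cluster 25, which had 235 cells and a median of 3678 UMIs.

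Each library carried 2 hashtag antibodies, whose meaning the labels do not give. Within Mll3/4-labelled B-cell progenitor-like cells, Foxo1 was 463 CPM in 3687 cells of the first hashtag and 486 CPM in 3031 cells of the second. Tcf3 was 97.1 and 106 CPM, and Pax5 was 409 and 320.1 CPM. In control, Foxo1 was 117 and 122 CPM, Tcf3 251 and 210.5 CPM, and Pax5 235 and 254 CPM. For every factor, Ikzf3 from few counts, both hashtags of the Mll3/4-labelled library lay on the same side of both hashtags of control. This was thus not particular to Foxo1 and Tcf3, and the share of all genes that do so is not given here.

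Surface B220, the form of CD45 on B cells, gave a second way to choose cells. Over the antibody threshold lay 98.9% of control, 98.4% of Mll3-labelled and 92.3% of Mll4-labelled B-cell progenitor-like cells, but 14.0% of those of the Mll3/4-labelled library. The 956 Mll3/4-labelled cells over the threshold and the 5874 under it were alike in the factors. Foxo1 was 488 and 473 CPM, Tcf3 101 and 102 CPM, and Ebf1 1806 and 1862 CPM, and no factor with over 20 counts in each differed by more than 0.14 on the log2 scale. When cells of any class were chosen by B220 alone, Foxo1 stood at 2.33 over control in the Mll3/4-labelled library, Bcl11a at 1.08, Pax5 at 1.02 and Tcf3 at -0.94. In that gate 99.2% of the Mll3/4-labelled but 86.7% of the control cells were of the B-cell progenitor-like class.

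At an equal depth of 2000 UMIs per cell, Ebf1 was detected in 97.7% of control, 98.0% of Mll3-labelled, 94.6% of Mll4-labelled and 91.2% of Mll3/4-labelled B-cell progenitor-like cells. Without thinning the shares were 99.8%, 99.7%, 96.5% and 98.3%. Thinning left out 30, 19, 69 and 83 shallower cells. In erythroid progenitor-like cells, which should lack the gene and whose median was 46723.5 UMIs in control, the thinned share was 0.25% in control, 0.69% in the Mll3-labelled and 0.39% in the Mll4-labelled library.

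Foxo1 was detected in 29.4% (25.2 to 33.9) of thinned control B-cell progenitor-like cells, 21.4% of Mll3-labelled, 16.2% of Mll4-labelled and 59.6% (58.4 to 60.8) of Mll3/4-labelled cells. Tcf3 was detected in 37.8% (33.3 to 42.5), 39.3%, 52.7% and 18.4% (17.5 to 19.4) in the same order. Bcl11a was detected in 19.4%, 20.5%, 23.0% and 39.4%. Such intervals lay apart from control for 8 of the 10 factors. The share of all genes with intervals apart is not given here, so this count describes the factors only. Besides Foxo1 and Bcl11a, the Mll3/4-labelled share was higher for Pax5 (48.1% beside 39.6%), Ikzf1 (34.5% beside 21.2%) and Pou2af1 (41.6% beside 34.9%). Besides Tcf3, it was lower for Lef1 (51.7% beside 74.7%) and Ebf1. The intervals of Bach2 and Ikzf3 overlapped. The unthinned shares of Tcf3, 70.6% in control beside 61.8% in Mll3/4-labelled cells, lay closer together.

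**Figure D4:**
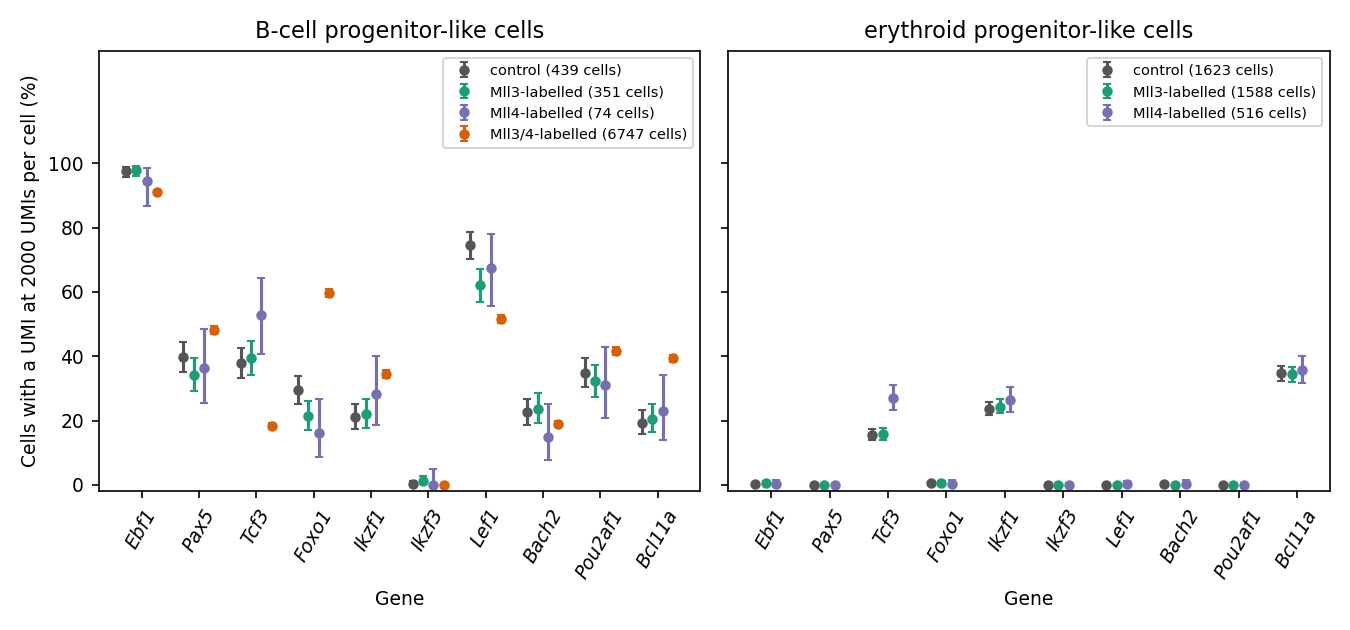
Share of cells with at least 1 UMI of each factor after thinning each cell to 2000 UMIs, in B-cell progenitor-like cells (left) and in erythroid progenitor-like cells (right), with 95% exact binomial intervals. Foxo1 reaches 59.6% of Mll3/4-labelled B-cell progenitor-like cells beside 29.4% of control, while in erythroid progenitor-like cells only Tcf3, Ikzf1 and Bcl11a are detected in over 1% of cells.

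Ebf1 and Pax5, which act in sequence, were seen together in 39.0% (34.4 to 43.7) of thinned control B-cell progenitor-like cells. They were together in 33.9% of Mll3-labelled, 36.5% of Mll4-labelled and 45.3% (44.1 to 46.5) of Mll3/4-labelled cells. Ebf1 without Pax5 was seen in 58.8%, 64.1%, 58.1% and 45.9%, and Pax5 without Ebf1 in 0.68%, 0.28%, 0% and 2.82%. By the limit of 3 counts, 0 of 74 Mll4-labelled cells allows up to 4.05% of cells in this state at this depth (exact upper bound 4.86%). In the Mll3/4-labelled library Pax5 was detected in 49.7% of 6152 cells with Ebf1 and in 31.9% of 595 cells without it. Within single clusters the intervals of these shares lay apart in cluster 22 (53.0% beside 32.4%) and cluster 26 (46.5% beside 28.9%). They overlapped in cluster 23 (48.1% beside 45.2%), cluster 24 (47.8% beside 38.4%) and cluster 25 (30.7% beside 23.8%). The median thinned cell showed 4 of the 10 factors in control, Mll4-labelled and Mll3/4-labelled cells and 3 in Mll3-labelled cells.

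In the Mll3-labelled B-cell progenitor-like cells none of the 9 measured factors passed 2-fold, where 0.417% of 8869 genes were higher and 1.89% lower. Intervals of 5 factors lay below 0 and of none above, while the share of all genes with such intervals is not given here. The lowest ratios were -0.37 for Bcl11a, -0.34 for Lef1 and -0.30 for Pax5, and the median over all genes was -0.09. In Mll4-labelled cells none of 9 passed 2-fold, where 8.15% of 8729 genes were higher and 8.48% lower. Tcf3 (0.58) and Bcl11a (0.41) had intervals above 0, and Lef1 (-0.27) and Ebf1 (-0.21) below. The class held 143 Mll4-labelled cells, with as few as 43 counts of Foxo1.

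In HSC/MPP-like cells, where the lineage is not yet chosen, 6 factors had at least 20 counts and none passed 2-fold in the Mll3-labelled library (0.378% of 11634 genes higher, 0.688% lower) or the Mll4-labelled library (4.47% of 11577 genes higher, 3.39% lower). The class held 1160 control, 770 Mll3-labelled and 389 Mll4-labelled cells, and 10 Mll3/4-labelled cells, too few to compare. Bcl11a was 136 CPM in control, 139 CPM in Mll3-labelled and 149 CPM in Mll4-labelled cells. Ikzf1 was 93.2, 82.0 and 96.1 CPM, and Tcf3 was 53.9, 47.1 and 74.1 CPM. Each of these 3 factors, taken by itself, differed by less than 2-fold between the libraries.

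Bach2 was 9.93 CPM in control, 6.29 CPM in Mll3-labelled and 11.8 CPM in Mll4-labelled HSC/MPP-like cells, with ratios of -0.58 (-1.11 to -0.23) and 0.22 (-0.46 to 0.88). Foxo1 was 6.67, 6.09 and 8.69 CPM. Ebf1 was 3.86 CPM from 59 counts, 5.29 CPM from 53 counts and 2.56 CPM from 5 counts. In thinned cells Ebf1 was seen in 0.78%, 1.04% and 0.52% of HSC/MPP-like cells, beside 0.25%, 0.69% and 0.39% of erythroid progenitor-like cells, with overlapping intervals in each library. As summed levels, however, Ebf1 was 0.71 CPM (0.53 to 0.94) in control and 1.84 CPM (1.54 to 2.19) in Mll3-labelled erythroid progenitor-like cells, under the intervals of the HSC/MPP-like cells of the same libraries (2.93 to 4.97 and 3.96 to 6.92). The 59 control and 53 Mll3-labelled counts came from only 1.90% and 2.73% of HSC/MPP-like cells. Poisson intervals are too narrow for UMIs clumped in so few cells, so they cannot set the classes apart. Whether those cells were doublets or misnamed was not tested. Pax5 was seen in none of 1159, 769 and 381 thinned cells. By the limit of 3 counts, 0 of 1159 control cells allows up to 0.259% of cells with a Pax5 UMI at this depth, and without thinning 0.43% of the control cells had one.

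Known targets and partners of the factors were taken from gene lists. Over whole libraries, 10 of 11 genes that EBF1 and PAX5 activate were 2-fold higher in the Mll3/4-labelled library, beside 12% of all genes. Their median log2 ratio was 4.54 beside -0.01 over all genes. Cd79a, a signalling chain of the B-cell receptor, was 39.1 CPM in control beside 2933 CPM in Mll3/4-labelled cells, and Fcrla was the exception. Genes of the list, among them Cd79a, Cd79b, Blnk, Vpreb1, Vpreb3 and Igll1, also serve as markers of the class, so this count is not independent of the class share. Within the class 1 of the 11 was higher and 2 were lower, at a median of -0.31 beside 0.02 over all genes. Of all genes, 9.48% were 2-fold higher and 7.37% lower within the class. Bank1, a B-cell scaffold protein, was 10.4 CPM in control and 52.3 CPM in Mll3/4-labelled cells. Fcrla was 15.7 and 0.092 CPM, and Spib, which encodes an ETS factor, was 27.7 and 3.14 CPM.

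Of 9 genes that FOXO1 drives, 5 were higher and 1 was lower over whole libraries (median 1.88), beside 12% and 11.7% of all genes. Il7r, Rag1 and Rag2 of this list are markers of the class, so this count too is not independent of the class share. Within the class 8 were measured, 1 higher and 2 lower (median 0.11), beside 9.48% and 7.37% of all genes. Il7r, the receptor for the growth factor of B progenitors, was 265 CPM in control and 703 CPM in Mll3/4-labelled cells, a ratio of 1.40. S1pr1, an exit receptor and among the lower genes, was 11.3 and 2.87 CPM. Rag1 was 325 and 388 CPM, a ratio of 0.25. The genes of the list thus lay on both sides, with Foxo1 itself 3.95-fold higher.

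Of 5 E-protein partners and Id inhibitors, 3 were higher and 2 lower over whole libraries (median 1.35), beside 12% and 11.7% of all genes. Within the class 3 were higher and none lower (median 1.09), beside 9.48% and 7.37% of all genes. Tcf4, another E protein, was 305 CPM in control and 823 CPM in Mll3/4-labelled B-cell progenitor-like cells (1.43), where Tcf3 was lower. Tcf12, the remaining E protein, was 92.6 and 126 CPM (0.44). Id3, an inhibitor of E proteins, was 199 and 581 CPM (1.54), and Id1 was 3.15 and 7.85 CPM (1.09). Id1 rests on few control counts and lies just past 2-fold, and its ratio is also the median of the list within the class.

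Of the 8 measured genes that PAX5 represses, 1 was higher and 3 lower over whole libraries (median -0.46), beside 12% and 11.7% of all genes. Within the class 1 of 5 was higher and 2 were lower (median -0.68), beside 9.48% and 7.37% of all genes. Flt3, a receptor of early lymphoid progenitors, was 5.67 CPM in control and 29.8 CPM in Mll3/4-labelled cells (2.21), and Notch1 was 23.0 and 1.99 CPM (-3.00). Fcer1g, an Fc receptor chain of myeloid cells, was 14.5 and 1.08 CPM (-2.90), low where the neutrophil markers were low. Whether RNA of myeloid cells had a part in the Fcer1g level and in the list median was not tested.

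Among relatives of the factors, 3 of 14 were higher and 2 lower over whole libraries (median -0.09), beside 12% and 11.7% of all genes. Within the class 2 of 10 were higher and 2 lower (median -0.27), beside 9.48% and 7.37% of all genes. Tcf7l1 and Tcf7l2, relatives of Lef1, were 4.09 and 57.3 CPM in control and 56.1 and 191 CPM in Mll3/4-labelled B-cell progenitor-like cells, at 3.49 and 1.72. Pou2f2, which encodes the octamer protein OCT2 and is a partner of OBF1, was 19.5 and 0.70 CPM (-3.59), and Ikzf2, which encodes HELIOS, was 3.46 and 0.45 CPM (-1.62). By CPM, though not in UMIs per cell, Lef1 was lower, and its relatives Tcf7l1 and Tcf7l2 were higher in the same cells.

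Of 17 other haematopoietic factors, 6 were higher and 8 lower over whole libraries (median -0.64), beside 12% and 11.7% of all genes. Within the class 1 of 14 was higher and 5 were lower (median -0.58), beside 9.48% and 7.37% of all genes. Gata3, a T-cell and innate lymphoid factor, was 1.57 CPM from 5 counts in control and 14.4 CPM in Mll3/4-labelled cells (2.58). Spi1, which encodes the myeloid and B-cell factor PU.1, was 49.7 and 3.90 CPM (-3.37), and Irf8 was 80.9 and 8.55 CPM (-3.10). Bcl6, a repressor of germinal centre cells, was 8.50 and 0.87 CPM (-2.35). Spi1 and Irf8 are expressed in myeloid cells as well, and they were low where the neutrophil markers were low. Whether RNA of myeloid cells had a part in these levels was not tested.

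In the single-deletion libraries, 1 of 44 measured genes over the 6 lists passed 2-fold within the class in the Mll3-labelled library and 8 of 44 in the Mll4-labelled library, 5 higher and 3 lower. Over all genes tested in the class, 0.417% were higher and 1.89% lower in the former, and 8.15% were higher and 8.48% lower in the latter, so the counts are near the background.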

How the data were processed

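The deposited matrices hold raw UMI counts per gene and cell, with 15 antibody features beside 32285 genes. Per the submitters' processing notes the authors used Cell Ranger 6.1.2 and the mm10 build; settings for calling cells are not given in the sources used here. Cells with at least 500 genes, 1000 UMIs and at most 10% mitochondrial UMIs were kept, and the highest Scrublet scores were removed at 0.8% per 1000 barcodes (between 5.29% and 8.01% of cells). The 4 libraries were clustered together with scanpy 1.11.5 (2000 variable genes, 30 components, 15 neighbours, Leiden resolution 1) without the 10 factors, Xist, Y-linked and mitochondrial genes. Clusters were named from 111 markers of 15 classes, and a name needed at least 3 detected markers.

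Counts were summed per library or per class and library and given as CPM. Ratios are log2 with a pseudocount of 1 CPM; their intervals are exact, conditional and without the pseudocount. Genes with at least 20 counts in either library were compared, and 2-fold was the threshold. Poisson and binomial intervals are exact. With 1 library per group no test was run. The B220 threshold, 38.9 antibody counts, was the crossing point of a 2-component mixture in control. GENCODE M21 holds 32158 of the identifiers. Free RNA was not corrected. The ratio step was checked on simulated counts.

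All 10 factors were named; of each list, up to 4 genes with the largest ratio in a comparison, the other list genes printed having been chosen after their values were seen. Some genes of the lists are counted but not reported by name here. The factors, lists, markers and comparisons were chosen with earlier results of these data known. Alternatives covered scaling (edgeR 4.0.16), pseudocount, weighting of cells, thinning, doublets, depth, clustering, the B220 gate and, added after the data were seen, division state and leaving out mature B cell-like cells.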

Additional observations from a re-analysis of the deposited data

How the results depend on the processing

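None of the 8 ratios past 2-fold changed direction under any alternative run. Of 69 ratios of the factors, 43 kept their sign under every alternative and 26, all under 2-fold, did not. The 6 factors past 2-fold over the whole Mll3/4-labelled library stayed above it, with ratios of at least 2.84. In its B-cell progenitor-like cells Foxo1 ranged from 1.46 to 2.33 and Tcf3 from -1.41 to -0.94, and Bach2 changed sign to 0.09 in the B220 gate. The count of factors past 2-fold there, 2, became 4 with thinning and in non-dividing clusters, 1 in dividing clusters, and 3 with TMM scaling and with each cell counted equally (Bcl11a added). In the B220 gate it was 3, Foxo1, Pax5 and Bcl11a, and Tcf3 was under 2-fold. Over the whole Mll4-labelled library the count of 0 became 1 with TMM scaling, 5 with each cell counted equally, 7 with thinning and 3 with at least 3000 UMIs per cell. In its B-cell progenitor-like cells 0 became 1 with thinning (Foxo1) and 1 in the B220 gate (Lef1), and in its HSC/MPP-like cells 0 became 1 (Ebf1, from few counts) without doublet removal, with at least 3000 UMIs and with the factors allowed in the clustering. Over the whole Mll3-labelled library 0 became 1 (Ikzf3) with each cell counted equally and with thinning. Shares of all genes past 2-fold under these alternatives are not given here, and the cause of these shifts was not tested.

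With at least 100 counts per gene, fewer genes are compared, and the count past 2-fold among relatives in Mll3/4-labelled B-cell progenitor-like cells went from 4 to 2. In the same class of the Mll4-labelled library the EBF1 and PAX5 list went from 2 to 1, the FOXO1 list from 2 to 0, relatives from 1 to 0 and other factors from 3 to 1. Other factors went from 1 to 0 in the Mll3-labelled class, and the FOXO1 list from 1 to 0 in Mll4-labelled HSC/MPP-like cells. The median of genes that PAX5 represses in Mll3/4-labelled B-cell progenitor-like cells changed from -0.68 to 0.43. No paired analysis was possible because each group has 1 library. The 143 Mll4-labelled cells of the class, at a median of 2276 UMIs, limit what can be seen there.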
